A study of Mus musculus with 12 samples.

Results

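The liver takes up amino acids from portal blood, exports others, and moves glutamate, ornithine and basic amino acids into its mitochondria. The genes described here are 10 amino acid transporters of the solute carrier families, chosen by symbol and found by their Ensembl identifiers among the 55414 genes of the count table. All 10 passed the filter on low counts that left 13857 genes for testing.

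The counts came from bulk RNAseq of the livers of 12 female adult C57BL/6J mice, a wild-type inbred strain, with 3 mice in each of 4 groups. A mouse received 0.9% NaCl or 300 mg/kg FeSO4 i.p., then PBS or 10 mg/kg dexamethasone (DEX, a synthetic glucocorticoid) i.p. 6 h later, and its liver was taken 2 h after the second injection, 8 h after the first. The groups are called NaCl/PBS, NaCl/DEX, FeSO4/PBS and FeSO4/DEX, and all of them received 2 injections. FeSO4 was injected as an acute overload and DEX as a ligand of the glucocorticoid receptor (GR), so the comparisons ask how transporter mRNAs responded to iron, to the glucocorticoid, and to the glucocorticoid after iron.

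Totals lay between 16335651 and 23827340 reads per library. FeSO4/PBS mouse 1 stood apart: its chi-square per gene was 89.5 and 71.4 against the other FeSO4/PBS mice, which differed from each other by 24. Values that rest on this mouse are therefore also given without it. Levels are given as CPM, the reads of a gene per 1000000 reads of its library after scaling with TMM factors. Hepatocyte markers were high in every liver, with a summed level of 98300 to 147000 CPM over the 7 genes measured. In bulk tissue, a lower share of cells of a type and less RNA per cell cannot be told apart.

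As background, cationic amino acids such as arginine enter cells through Slc7a1 and Slc7a2, of which Slc7a2 is the transporter known from hepatocytes. Large neutral amino acids cross the membrane through Slc7a5, which works only in a pair with the heavy chain Slc3a2, and through Slc43a1, which needs no heavy chain. Slc38a2 and Slc38a4 carry small neutral amino acids such as alanine into the cell together with sodium (system A), and Slc38a3 carries glutamine and histidine (system N). Slc1a2 takes up glutamate and in the liver is known from hepatocytes around the central vein. Slc1a4 exchanges alanine, serine, cysteine and threonine, and Slc25a22 carries glutamate into mitochondria. Amino acid shortage and other stresses act on several of these genes through ATF4 and C/EBP factors, which bind composite elements in or near the promoter, and Slc7a1 and Slc38a2 are textbook cases.

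Because of this background, the region from 1000 bases before to 1000 after the start of each gene's canonical transcript was searched on both strands for the letters TGATGNAA, a composite C/EBP-ATF element. They occurred in 4 of the 10 transporters and in 18.5% of the 13817 such regions of tested genes. The matches follow, read from GRCm39, 5′ to 3′ on the strand of the gene, with the match in capitals. TTGCATCA is the same element read from the opposite strand.
Slc7a1, first intron: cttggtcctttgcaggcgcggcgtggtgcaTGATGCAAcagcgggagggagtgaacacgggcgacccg
Slc7a1, non-coding part of the first exon: cggcgcgcggcTGATGAAAccggctcggat
Slc38a2, intron of the canonical transcript: gcccctcggtaTTGCATCAgttcctcccgg
Slc1a4, non-coding part of the first exon: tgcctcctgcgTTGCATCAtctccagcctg
Slc38a4, upstream: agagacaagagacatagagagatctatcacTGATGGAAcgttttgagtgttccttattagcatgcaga
The intron match of Slc7a1 lay at chr5:148336310-148336317, 532 bases into the gene, and its exon match at chr5:148336641-148336648, 201 bases in. The match of Slc38a2 lay at chr15:96597058-96597065, 563 bases after the start, in bases that other annotated transcripts use as a non-coding exon. That of Slc1a4 lay at chr11:20282710-20282717, 58 bases in, and that of Slc38a4 at chr15:96954781-96954788, at position -939 from the start. The core of the antioxidant response element, TGACNNNGC, occurred in 5 of the 10 regions and in 53.5% of all. The GR half-site AGAACA occurred in 7 of the 10 regions and in 70.7% of all. No match shown above overlapped a match of these 2 motifs, and Slc25a22 held none of the 3. A match is a run of letters, and the libraries hold no measurement of binding.

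Levels between genes were compared in CPM per kilobase of exon, over all annotated exons of a gene. The order and the overlaps of neighbours given below hold for this length, and some differ with the length of the longest transcript. In the NaCl/PBS livers, Slc38a3 (207 ± 19.4, SD, n = 3) and Slc38a4 (197 ± 13.7) were the most abundant of the 10, and their mice overlapped. Slc7a2 followed with 60.6 ± 15.2 and Slc25a22 with 27.2 ± 3.78, each apart from its neighbours. Slc1a2 (17.5 ± 0.713) and Slc38a2 (15.2 ± 3.95) overlapped. Slc43a1 was at 1.92 ± 0.393, and Slc1a4 (1.09 ± 0.32) and Slc7a5 (1.06 ± 0.148) overlapped below it. Slc7a1, at 0.0958 ± 0.00569, was the lowest, as 25 to 29 reads per library. So the order in these livers ran from Slc38a3 and Slc38a4 at the top to Slc7a1 at the bottom.

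The order differed after FeSO4. In the FeSO4/PBS livers Slc38a4 led with 257 ± 66.8, with Slc38a3 at 162 ± 24.7 below all of its mice. Slc7a2 (115 ± 56.7), Slc25a22 (99.4 ± 20.9) and Slc38a2 (91.8 ± 11.5) came next, and each overlapped its neighbour. Slc1a2 was at 9.53 ± 1.86, Slc43a1 at 1.83 ± 0.497, Slc7a5 at 1.31 ± 0.306, and Slc7a1 at 1.07 ± 0.447, which overlapped Slc7a5. Slc1a4 was then the lowest at 0.605 ± 0.0551. In the NaCl/DEX livers Slc38a2 was at 59.3 ± 1.03, above all mice for Slc25a22 (31.2 ± 1.12). In the FeSO4/DEX livers Slc38a4 (283 ± 35.9) lay above all mice for Slc38a3 (170.4 ± 27.5). Slc38a3, Slc7a2 (138 ± 24.5), Slc38a2 (126.5 ± 6.76) and Slc25a22 (105.5 ± 23.7) overlapped in turn.

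**Figure D1:**
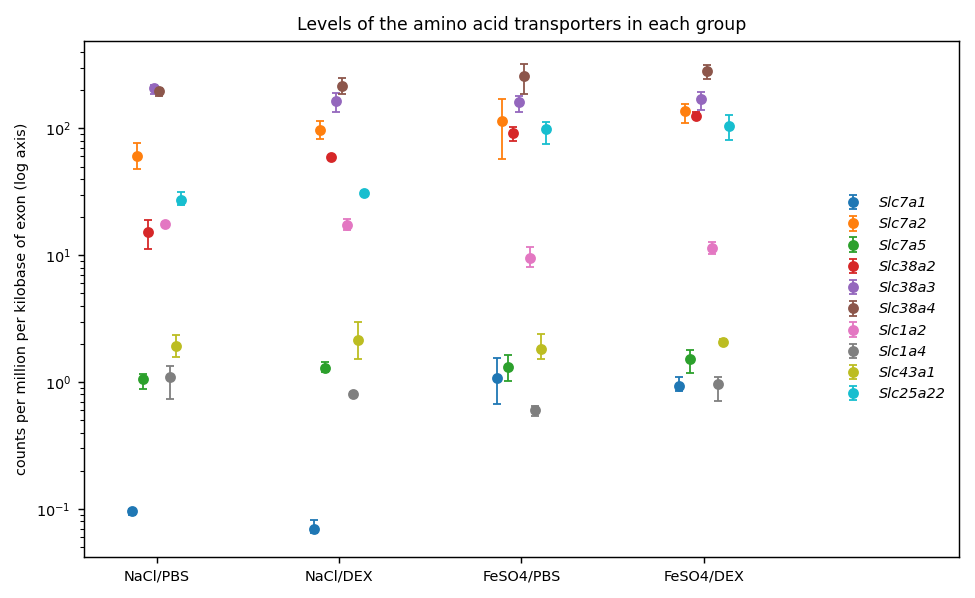
Level of each transporter in each group, in CPM per kilobase of exon on a log axis. Points are means of 3 mice and bars run from the lowest to the highest mouse. Slc38a3 and Slc38a4 have the highest means of every group, and Slc7a1 lies near 0.1 in the NaCl groups and near 1 in the FeSO4 groups.

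FeSO4 without DEX changed the mRNA of transporters of several classes. Slc7a1, Slc38a2, Slc25a22 and Slc7a2 rose and Slc1a2 and Slc1a4 fell, at an FDR of 0.05 or less in edgeR's quasi-likelihood test over all tested genes (FeSO4/PBS against NaCl/PBS). Thus 4 of 10 were higher, beside 27.2% of all genes, and 2 of 10 were lower, beside 27.3%. In either direction 60% of the 10 were called, while 3770 of all 13857 tested genes were higher and 3783 lower. Calls were thus common outside the list too, and whether the 10 were called more often than other genes was not tested. The median LFC (log2 fold change) of the 10 was 0.34, beside -0.02 for all tested genes. Without FeSO4/PBS mouse 1, 5 were higher and 3 were lower, and DESeq2 gave 5 higher and 2 lower.

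Slc7a1 (ENSMUSG00000041313, chr5:148264220-148336848, minus strand), the widely expressed cationic amino acid transporter, had the steepest rise. Its level was 1.05, 1.18 and 1.15 CPM in the NaCl/PBS mice and 7.89, 18.3 and 11.6 CPM in the FeSO4/PBS mice. All FeSO4 mice lay above all control mice, with mouse 1 the lowest of them. The LFC was 3.48 ± 0.29 (SE, FDR = 4.2e-07), an 11.1-fold rise in the mean, and 3.73 without FeSO4/PBS mouse 1.

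Slc7a2 (ENSMUSG00000031596, chr8:41315431-41375345, plus strand), the hepatocyte's own cationic transporter, was at 579, 479.5 and 781 CPM in NaCl/PBS mice and at 580.4, 1727 and 1179 CPM in FeSO4/PBS mice. FeSO4/PBS mouse 1 lay within the control range and the other FeSO4 mice above it. The LFC was 0.92 ± 0.30 (FDR = 0.019) and rose to 1.25 (FDR = 0.00033) without that mouse. The call was lost without NaCl/PBS mouse 1 (FDR = 0.055), NaCl/PBS mouse 2 (FDR = 0.071) or FeSO4/PBS mouse 2 (LFC 0.52, FDR = 0.13).

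Slc38a2 (ENSMUSG00000022462, chr15:96585266-96597894, minus strand), the inducible system A transporter, was at 109, 185 and 148 CPM in NaCl/PBS mice. In FeSO4/PBS mice it was at 906, 993 and 771 CPM. The groups were far apart, with the lowest FeSO4 mouse well above the highest control. The LFC was 2.60 ± 0.17 (FDR = 6.9e-08), a 6.04-fold rise.

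Its relatives of the same family did not pass edgeR's test. Slc38a4 (ENSMUSG00000022464, chr15:96892693-96958593, minus strand), the system A transporter typical of liver, was at 1271, 1119 and 1259 CPM in NaCl/PBS mice and at 1156, 1979 and 1622 CPM in FeSO4/PBS mice. As for Slc7a2, FeSO4/PBS mouse 1 lay among the controls and the other FeSO4 mice above them. The LFC was 0.38 ± 0.18 (FDR = 0.082), and 0.57 (FDR = 0.0049) without FeSO4/PBS mouse 1. It was called higher by DESeq2 (LFC 0.41, FDR = 0.05) and by edgeR without a filter (FDR = 0.03). Slc38a3 (ENSMUSG00000010064, chr9:107527815-107547018, minus strand), the system N glutamine transporter, was at 2032, 1709 and 2004 CPM in NaCl/PBS mice and at 1667, 1587 and 1238 CPM in FeSO4/PBS mice. All FeSO4 mice lay below all controls by a small step. The LFC was -0.36 ± 0.16 (FDR = 0.082), and -0.44 (FDR = 0.049) without FeSO4/PBS mouse 1. It was also called lower by edgeR without a filter (FDR = 0.043).

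Slc25a22 (ENSMUSG00000019082, chr7:141009649-141017832, minus strand), the mitochondrial glutamate carrier, was at 162, 166 and 207 CPM in NaCl/PBS mice and at 493, 723 and 734 CPM in FeSO4/PBS mice. The groups did not overlap. The LFC was 1.87 ± 0.19 (FDR = 2.1e-06), a 3.65-fold rise. The glutamate importer of the plasma membrane, Slc1a2 (ENSMUSG00000005089, chr2:102488574-102621129, plus strand), went the other way. It was at 236.5, 256 and 244 CPM in NaCl/PBS mice and at 125, 162.5 and 113 CPM in FeSO4/PBS mice, with no overlap. The LFC was -0.88 ± 0.14 (FDR = 1.5e-04).

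Since Slc1a2 is a transporter of pericentral hepatocytes, the 7 pericentral markers were set beside it. Of these, Glul (glutamine synthetase) was higher at an LFC of 0.59 (FDR = 0.0045), while Lgr5 (LFC -3.08) and Axin2 (LFC -1.56) were lower. The other 4 did not pass the test. Their summed level was 7140 to 7800 CPM in NaCl/PBS mice and 6300 to 7190 CPM in FeSO4/PBS mice, and none was at 0 in all mice of a group. The part of zonal change in the fall of Slc1a2 was not tested.

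Slc1a4 (ENSMUSG00000020142, chr11:20252180-20282774, minus strand), the exchanger of alanine, serine, cysteine and threonine, was low in every liver. It was at 5.05, 3.02 and 5.51 CPM in NaCl/PBS mice and at 2.7, 2.57 and 2.25 CPM in FeSO4/PBS mice. All FeSO4 mice lay below all controls, the second control only slightly above them. The LFC was -0.85 ± 0.25 (FDR = 0.010), and -0.69 (FDR = 0.054) without NaCl/PBS mouse 3.

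The large neutral amino acid transporters gave overlapping groups. Slc7a5 (ENSMUSG00000040010, chr8:122607884-122634433, minus strand) was at 3.41, 4.39 and 4.4 CPM in NaCl/PBS mice and at 4.93, 3.90 and 6.24 CPM in FeSO4/PBS mice. Its LFC of 0.30 had a 95% interval of -0.16 to 0.77 (FDR = 0.26). Slc43a1 (ENSMUSG00000027075, chr2:84669194-84698315, plus strand) was at 9.40, 14.0 and 10.8 CPM in NaCl/PBS mice and at 8.96, 14.3 and 9.40 CPM in FeSO4/PBS mice. Its LFC of -0.06 had a 95% interval of -0.58 to 0.45 (FDR = 0.84).

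**Figure D2:**
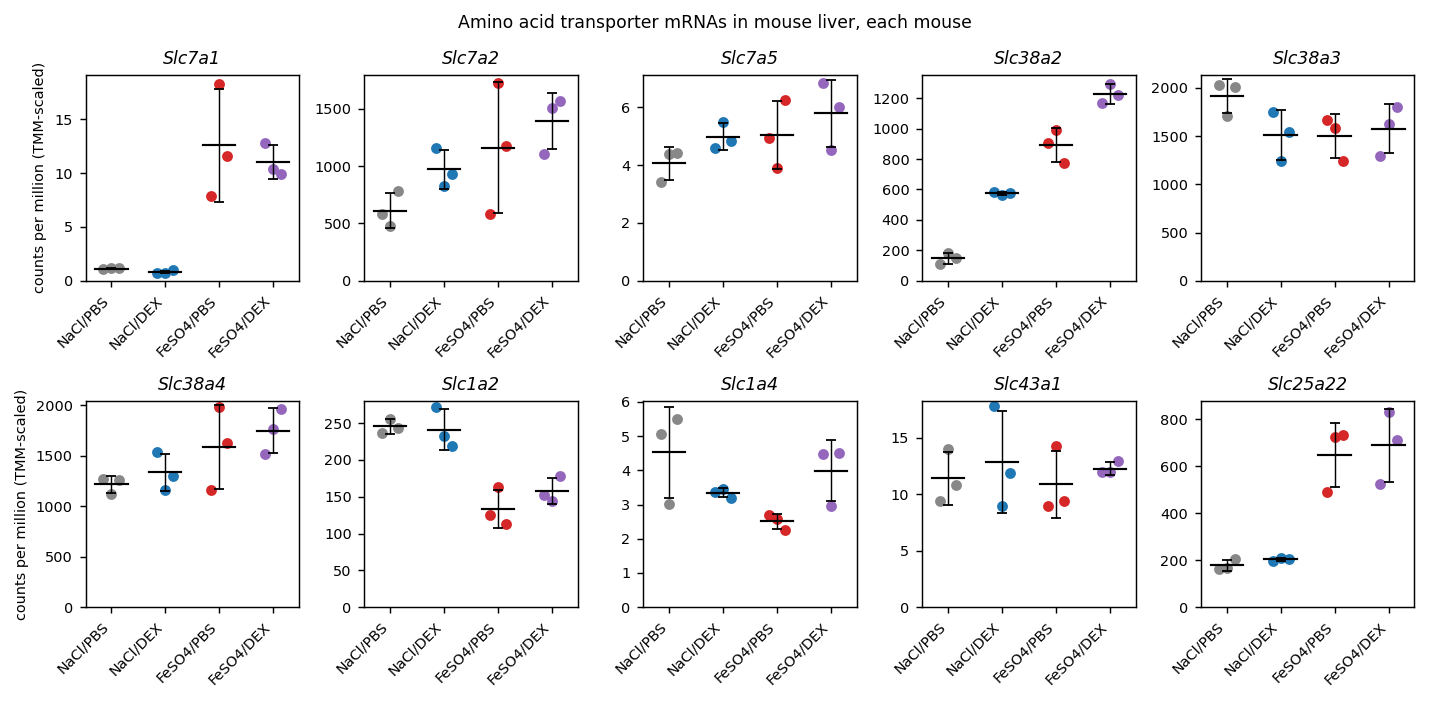
Level of each of the 10 transporters in each mouse, in CPM on a linear axis from 0. Points are single mice, horizontal lines the group means and bars the SD over 3 mice. Slc7a1 and Slc25a22 separate the FeSO4 groups from the NaCl groups, and Slc38a2 steps up from 109 to 185 CPM in NaCl/PBS to 1166 to 1296 CPM in FeSO4/DEX.

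Markers of other cell types moved between the same groups, where 27.2% of all genes were higher after FeSO4 and 27.3% lower. Of 6 tested neutrophil markers, 5 were higher after FeSO4, and the summed level of the 7 listed was 5.85 to 15.1 CPM in NaCl/PBS and 39.2 to 47.3 CPM in FeSO4/PBS mice. The defining marker Ly6g averaged 0.0898 CPM in FeSO4/PBS mice. Of 8 macrophage markers, 7 were lower and none was at 0, with summed levels of 337 to 407 and 201 to 229 CPM. Of 5 tested cholangiocyte markers, 2 were higher, Sox9 (LFC 3.26) and Spp1 (LFC 0.48), with summed levels of 27 to 34.6 and 53.9 to 69.5 CPM over the 6 listed. Of 7 endothelial markers, 2 were higher, Lyve1 (LFC 2.83) and Cdh5 (LFC 1.02), and 2 lower, Kdr (LFC -1.89) among them, with summed levels of 283 to 331 and 301 to 363 CPM. Of 6 stellate cell markers, 2 were higher and 1 was lower. Of the 7 hepatocyte markers, 5 were higher, with summed levels of 98300 to 116000 and 126000 to 145000 CPM. The part of these shifts in the transporter levels was not tested.

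DEX in mice that had received NaCl raised 1 of the 10 transporters, Slc38a2, and lowered none (NaCl/DEX against NaCl/PBS). At an unadjusted p under 0.05, edgeR and DESeq2 each gave 2 higher and 0 lower, and each called 1 after adjustment. Over all genes, 3718 of 13857 had an unadjusted p under 0.05 by edgeR, in either direction. After adjustment, 6.5% of all genes were higher and 7.15% were lower. The median LFC of the 10 was 0.15, beside -0.02 for all genes. Slc38a2 was at 582.5, 564 and 580.0 CPM in NaCl/DEX mice, all far above the NaCl/PBS mice and close to each other. The LFC was 1.97 ± 0.17 (FDR = 5.2e-06), a 3.91-fold rise within 2 h, and its 95% interval was 1.61 to 2.33.

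Slc7a2 was next, at 1157, 831 and 929 CPM in NaCl/DEX mice, all above all NaCl/PBS mice. Its LFC of 0.67 ± 0.30 did not pass the test (FDR = 0.17). The FDR was 0.029 without FeSO4/PBS mouse 1, which enters only through the shared spread, 0.026 in a fit of the NaCl/PBS and NaCl/DEX libraries alone, and 9.3e-05 without a filter on low counts. Slc38a3 was at 1750, 1241 and 1540 CPM, overlapping the controls, with an LFC of -0.34 ± 0.16 (FDR = 0.20). Slc1a4, at 3.36, 3.46 and 3.20 CPM, also overlapped, with an LFC of -0.44 ± 0.24 (FDR = 0.27). The 95% intervals reached 1.31 for Slc7a2, -0.70 for Slc38a3 and -0.96 for Slc1a4.

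Slc7a1 was at 0.759, 0.759 and 0.966 CPM in NaCl/DEX mice, from 14 to 19 reads per library, all below the NaCl/PBS mice. Its LFC of -0.44 ± 0.35 did not pass the test (FDR = 0.46). Slc25a22 was at 196, 210.3 and 206 CPM, with an LFC of 0.20 and a 95% interval of -0.19 to 0.58. Slc1a2, at 272, 232 and 219.5 CPM, had an LFC of -0.03 with an interval of -0.33 to 0.28. Slc7a1, Slc25a22 and Slc1a2, which responded to FeSO4, were thus without a call after DEX. Each had an interval that excluded an LFC of the size seen after FeSO4. Slc38a4 ranged from 1164 to 1533 CPM, Slc43a1 from 8.97 to 17.8 CPM and Slc7a5 from 4.61 to 5.5 CPM in NaCl/DEX mice. Their LFCs were 0.13, 0.17 and 0.30, without a call.

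DEX in mice that had received FeSO4 gave no call for any transporter (FeSO4/DEX against FeSO4/PBS), beside 0% of all genes higher and 0% lower. By edgeR's quasi-likelihood test, 2 of the 10 had an unadjusted p under 0.05, and DESeq2 also gave 2 at that level and 0 after adjustment. Over all genes, 900 of 13857 had an unadjusted p under 0.05 by edgeR, and DESeq2 called 11. The transporters in question were Slc38a2 and Slc1a4.

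Slc38a2 was at 1166, 1296 and 1219 CPM in FeSO4/DEX mice, all above the 771 to 993 CPM of FeSO4/PBS mice. Its LFC of 0.46 ± 0.16 had an unadjusted edgeR p of 0.013 and an FDR of 0.71. Slc1a4 was at 4.49, 2.95 and 4.5 CPM in FeSO4/DEX mice, all above the FeSO4/PBS mice. Mouse 2 lay just below the lowest NaCl/PBS mouse (3.02 CPM), and the others lay within the NaCl/PBS range. The LFC of Slc1a4, 0.67 ± 0.26, had an unadjusted edgeR p of 0.020 and an FDR of 0.73. The other 8 overlapped between these groups. Their LFCs ran from -0.19 for Slc7a1 to 0.26 for Slc7a2.

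Since both DEX comparisons and the FeSO4 comparison share groups, the difference of the DEX responses was tested in its own right, as the LFC of DEX after FeSO4 minus the LFC of DEX after NaCl. Slc38a2 was the only transporter that passed: 1 of 10 was lower, beside 3.2% of all genes, and 0 were higher, beside 2.99%. By edgeR and by DESeq2, 1 transporter, Slc1a4, was higher at an unadjusted p under 0.05 and 0 after adjustment. Over all genes, 2830 of 13857 had an unadjusted p under 0.05 by edgeR, in either direction. The difference of Slc38a2 was -1.50 ± 0.23 (95% interval -2.0 to -1.01, FDR = 0.0016), and it was between -1.72 and -1.34 under every alternative run. The mean of Slc38a2 was 3.91 times as high with DEX as with PBS in NaCl mice, and 1.38 times in FeSO4 mice. The FeSO4/PBS mean was 6.04 times that of NaCl/PBS mice. The means, each from different mice, were 147 CPM (NaCl/PBS), 575.5 CPM (NaCl/DEX), 890.0 CPM (FeSO4/PBS) and 1227 CPM (FeSO4/DEX). Slc1a4 had a difference of 1.11 ± 0.35 that did not pass (FDR = 0.082), but did without NaCl/PBS mouse 2 (1.31, FDR = 0.029). The remaining differences lay between -0.40 for Slc7a2 and 0.41 for Slc38a3.

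**Figure D3:**
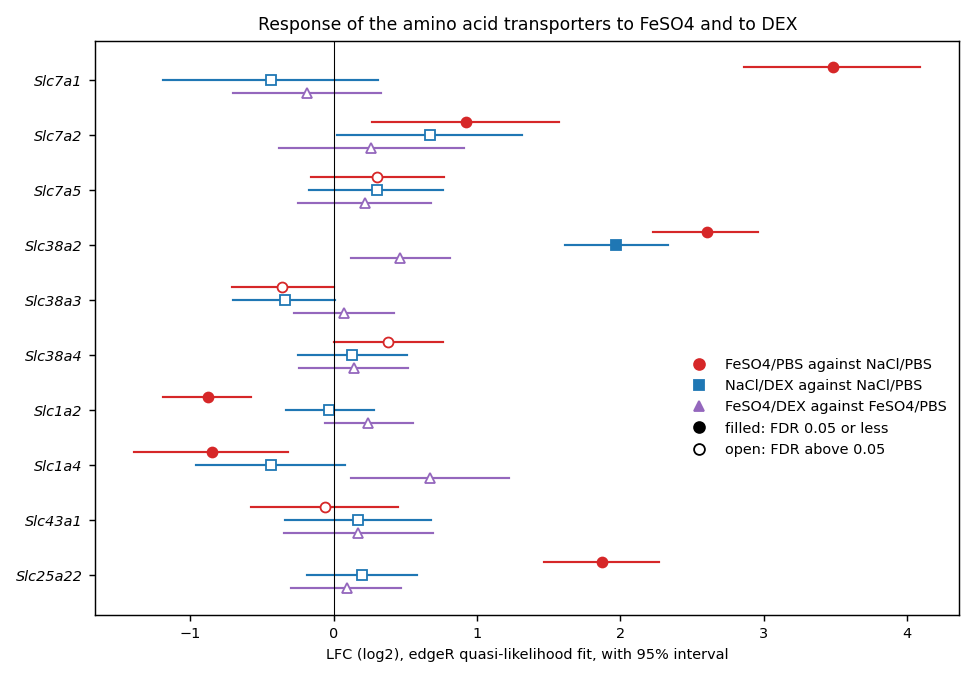
LFC of each transporter with its 95% interval from the edgeR fit, for FeSO4 without DEX (red circles), DEX after NaCl (blue squares) and DEX after FeSO4 (purple triangles). Filled symbols have an FDR of 0.05 or less, and the red and blue comparisons share the NaCl/PBS mice. Of the blue symbols Slc38a2 alone is filled, and no purple symbol is.

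Of the transporters called after FeSO4 without DEX, 4 were also called, in the same direction, when both groups had received DEX (FeSO4/DEX against NaCl/DEX). Slc7a1, Slc25a22 and Slc38a2 were higher, 3 of 10 beside 22.4% of all genes, and Slc1a2 was lower, 1 of 10 beside 20.9%. Slc7a1 was at 12.8, 10.4 and 9.96 CPM in FeSO4/DEX mice, an LFC of 3.73 ± 0.31 (FDR = 6.2e-07). Slc25a22 was at 525, 833 and 711 CPM, an LFC of 1.76 ± 0.18 (FDR = 5.4e-06). Slc38a2 rose by an LFC of 1.09 ± 0.16 (FDR = 1.1e-04), and Slc1a2, at 152, 144 and 178 CPM, fell by 0.61 on the log2 scale (FDR = 0.0032). None of these livers was compared in the test without DEX, though both tests share the model and its estimate of the spread. The groups did not overlap for any of the 4.

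The remaining 6 did not pass. Slc7a2 was at 1110, 1505 and 1568 CPM in FeSO4/DEX mice, with an LFC of 0.52 ± 0.30 (FDR = 0.18). It was called higher with only the compared libraries (FDR = 0.027) and without a filter (FDR = 0.0035). Slc38a4 was at 1520, 1759 and 1963 CPM, with an LFC of 0.39 ± 0.18 (FDR = 0.090), and an FDR of 0.041 without FeSO4/PBS mouse 1 and of 0.045 without a filter. Slc38a3 ranged from 1297 to 1796 CPM, Slc43a1 from 11.9 to 12.9 CPM and Slc7a5 from 4.53 to 6.83 CPM in FeSO4/DEX mice. Their LFCs were 0.06, -0.07 and 0.22. That of Slc1a4 was 0.26 (FDR = 0.43), opposite in sign to its called fall without DEX.

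The transporters differed in how closely they followed one another over the 12 livers, which share the group differences just described. Pearson's r of log2 CPM was 0.959 for Slc7a1 with Slc25a22 and 0.936 for Slc7a2 with Slc38a4. Slc1a2 ran against both Slc7a1 (r = -0.876) and Slc25a22 (r = -0.874). The genes most like Slc7a1 among all tested were Klf6 (r = 0.996), Ets2 (r = 0.996) and Synpo (r = 0.992), and those most like Slc38a2 included Sdc4 (r = 0.985) and Nfkbia (r = 0.984). Slc25a22 was most like Elovl5 (r = 0.990), Ift172 and Ulk1, and Slc1a2 most like Tubd1 (r = 0.975), Kif13b and Pgghg. Slc7a2 was closest to Mknk2 (r = 0.964), Vps13d and Frmd4b, and Slc38a4 to Frmd4b (r = 0.947), Tcp11l2 and Slc7a2.

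Genes close to Slc1a4 included Dexi (r = 0.893) and Dzank1. Slc38a3 was closest to Nit2 (r = 0.887), Apol9b and H2-T22, Slc7a5 to Gdf2 (r = 0.868), Flt1 and Gnai1, and Slc43a1 to Dnase2b (r = 0.849), Pbdc1 and Pin4. All these values are descriptions over the same 12 libraries, picked from the highest over all tested genes.

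A list of 57 other amino acid transporters, of which 31 passed the filter, gave the setting. After FeSO4, 12 were higher, beside 27.2% of all genes, and 9 lower, beside 27.3%, with a median LFC of 0.04. DEX in NaCl mice gave 4 higher and 4 lower, beside 6.5% and 7.15% of all genes. After DEX in FeSO4 mice edgeR and DESeq2 called 0, with 2 at an unadjusted p under 0.05 by each. In FeSO4/DEX against NaCl/DEX, 11 were higher and 10 lower, beside 22.4% and 20.9% of all genes.

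The heavy chain Slc3a2, partner of Slc7a5, rose although Slc7a5 gave no call. It was at 34.5, 41.7 and 35.0 CPM in NaCl/PBS mice and at 163, 100.3 and 96.6 CPM in FeSO4/PBS mice, with mouse 1 the highest. Its LFC was 1.70 ± 0.17 (FDR = 2.6e-06), and 1.42 without that mouse. Other light chains that pair with it moved in both directions. Slc7a6, an exchanger of cationic for neutral amino acids, was at 0.363, 0.472 and 0.299 CPM in NaCl/PBS mice and at 20.2, 12.4 and 7.15 CPM in FeSO4/PBS mice, an LFC of 5.12 ± 0.47, and 4.69 without FeSO4/PBS mouse 1. The related Slc7a7 fell from 3.74, 4.77 and 4.53 CPM to 1.68, 1.44 and 1.93 CPM, an LFC of -1.37 ± 0.27.

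Slc7a11, the light chain of the cystine-glutamate exchanger, had 3, 0 and 1 reads in NaCl/PBS mice and 226, 63 and 42 reads in FeSO4/PBS mice. Scaled to library size with TMM factors, the ratio was 109 with a 95% exact interval of 42.2 to 403, which covers counting error only. The ratio was 54.1 (20.5 to 202) without FeSO4/PBS mouse 1. In the FeSO4/DEX mice Slc7a11 had 19, 51 and 24 reads.

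Mitochondrial carriers beside Slc25a22 also moved. Slc25a18, the second glutamate carrier, had 0 reads in all NaCl/PBS mice and 22, 25 and 17 reads in FeSO4/PBS mice, at least 9.23-fold higher against a floor of 3 reads per library. It had 7, 4 and 3 reads in NaCl/DEX mice, at least 1.91-fold higher, and that call was lost without NaCl/PBS mouse 1 (FDR = 0.055) or NaCl/DEX mouse 1 (FDR = 0.061). Slc25a29, a carrier of basic amino acids, rose after FeSO4 by an LFC of 1.70 ± 0.27. Slc25a15, the ornithine carrier of the urea cycle, was at 297, 237 and 303 CPM in NaCl/PBS mice and at 1145, 870 and 785 CPM in NaCl/DEX mice, an LFC of 1.74 ± 0.19 (FDR = 4.5e-05).

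Like Slc38a2, Slc25a15 had a lower DEX response after FeSO4 on the log2 scale. The means of Slc38a2 without and with DEX were 147 and 575.5 CPM in NaCl mice. In FeSO4 mice they were 890 and 1227 CPM, and those groups did not overlap. Slc25a15 was at 505, 574.5 and 407 CPM in FeSO4/PBS mice and at 418, 595 and 647 CPM in FeSO4/DEX mice, which overlapped. Its means without and with DEX were 279 and 933.5 CPM in NaCl mice and 495 and 553 CPM in FeSO4 mice. The difference of the DEX responses was -1.58 ± 0.27 (FDR = 0.0032). Unlike Slc38a2, its level in FeSO4/DEX mice stayed below all NaCl/DEX mice (LFC -0.75, FDR = 0.0054).

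Among transporters of lysosomes and the plasma membrane, Slc36a1, a proton-coupled amino acid transporter known from lysosomes, fell from 35.1, 38.3 and 41.5 CPM in NaCl/PBS mice to 7.89, 10.2 and 13.3 CPM in FeSO4/PBS mice. Its LFC was -1.88 ± 0.16 for FeSO4 without DEX and -0.90 ± 0.15 for DEX after NaCl. Slc43a2, a relative of Slc43a1, fell after FeSO4 by 1.11 on the log2 scale. After DEX in NaCl mice, the glycine transporter Slc6a9 was higher (LFC 1.00, FDR = 0.012) and the lysosomal exporter Slc66a1 lower (LFC -0.78, FDR = 0.018). The call of Slc6a9 was lost without NaCl/PBS mouse 1 (FDR = 0.060) or mouse 3 (FDR = 0.051) and without NaCl/DEX mouse 2 (FDR = 0.058) or mouse 3 (FDR = 0.053). That of Slc66a1 was lost without NaCl/PBS mouse 1 (FDR = 0.053) or mouse 3 (FDR = 0.074) and without NaCl/DEX mouse 3 (FDR = 0.087).

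**Figure D4:**
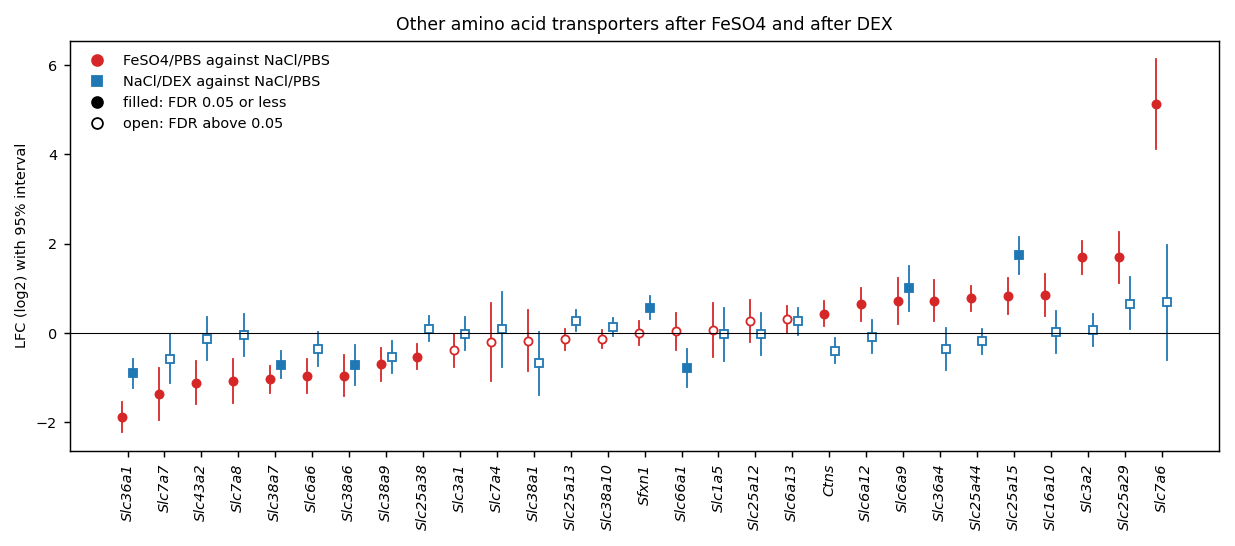
LFC with 95% interval of 29 other tested amino acid transporters, ordered by their response to FeSO4 without DEX (red circles), with their response to DEX after NaCl (blue squares). Filled symbols have an FDR of 0.05 or less. Slc25a18 and Slc7a11 are left out because their control counts were at or under 3 reads, and Slc7a6 is the highest of those drawn.

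A list of 20 genes of the amino acid and integrated stress response, of which 19 were tested, was read beside the transporters because ATF4 and C/EBP factors act on some of them. After FeSO4, 8 were higher, beside 27.2% of all genes, and 1 was lower, beside 27.3%. The other 10, Ddit3, Trib3, Sesn2 and Nupr1 among them, gave no call, and the median LFC was 0.68. Atf4 itself was at 59.8, 63.1 and 63.5 CPM in NaCl/PBS mice and at 278, 135.5 and 169 CPM in FeSO4/PBS mice, an LFC of 1.64 (FDR = 1.5e-05), and 1.3 without FeSO4/PBS mouse 1, the highest of them. Atf3, a stress-induced factor, rose by an LFC of 5.75 ± 0.58 and Chac1, an enzyme that degrades glutathione, by 3.58 ± 0.26. Cebpg, a partner of ATF4, was the gene that fell (LFC -0.99). In FeSO4/DEX against NaCl/DEX, 6 of the 19 were higher, beside 22.4% of all genes. Trib3 and Cebpg, 2 of the 19, were lower, beside 20.9%.

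After DEX in NaCl mice 2 of the 19 were higher and 0 lower by edgeR (5 and 1 at an unadjusted p under 0.05), and DESeq2 called 4 and 0. Of all genes, 6.5% were higher and 7.15% lower by edgeR, and 3718 of 13857 had an unadjusted p under 0.05. Ddit4, an inhibitor of mTORC1 and a known GR target, rose from 5.01, 5.24 and 4.83 CPM to 164, 147.5 and 147 CPM, an LFC of 4.93 ± 0.25. Cebpb, a C/EBP factor, rose by an LFC of 1.29 ± 0.16. Both also rose after FeSO4, Ddit4 by 3.19 ± 0.23 and Cebpb by 2.08 ± 0.17, with the same control mice. Like Slc38a2, both had lower DEX responses after FeSO4 on the log2 scale, with a difference of -3.55 for Ddit4 and -1.10 for Cebpb. After DEX in FeSO4 mice no gene of the list was called by edgeR and Ddit4 was by DESeq2, with 2 at an unadjusted p under 0.05 by each.

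Some exons are shared with genes on the opposite strand. In the annotation used here, exons of Slc38a4 overlapped a long non-coding RNA by 1544 bases, those of Slc1a4 by 829, of Slc1a2 by 710, of Slc38a2 by 205 and of Slc7a1 by 106, and those of Slc25a22 overlapped a pseudogene by 441 bases. Since the strand setting of the counting is not given in the sources used here, reads of such partners cannot be told apart from the transporter's own.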

How the data were processed

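Liver mRNA of 12 mice was measured by stranded, single-end RNAseq. According to the methods and the submitters' processing notes, the authors ran FastQC, aligned reads to mm39 using STAR 2.7.10b and deposited raw counts per Ensembl gene, without normalization. Symbols, positions and lengths came from GENCODE vM39 on GRCm39, a later release than the authors used. Counts were fitted with edgeR 4.0.16 (R 4.3.3) in 1 quasi-likelihood model of the 4 groups, after filterByExpr and TMM scaling, and adjusted by Benjamini-Hochberg over 13857 genes. Calls had an FDR of 0.05 or less, with no minimum LFC. The biological coefficient of variation was 0.169. Each library was counted as 1 mouse, since mice of a group differed beyond sampling noise (chi-square per gene 18.3 to 89.5). In simulated counts in which 200 genes had an LFC of 1, the test recovered 63% for FeSO4/PBS among 13546 genes and 63.5% for NaCl/DEX among 13579 genes. It made 10 and 4 false calls. The simulation gave each gene 1 spread for all groups, while the median SD of log2 CPM was 0.157 in NaCl/PBS and 0.268 in FeSO4/PBS mice. It also changed fewer genes than were called after FeSO4 (3770 higher and 3783 lower), so its recovery need not hold for the real comparisons. Depth was 16335651 to 23827340 reads, and the number of mice limits precision.

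The members and gene lists were chosen with earlier results of these data known. Named were all 10 transporters, Slc3a2, the 8 largest changes after FeSO4 (mean of at least 1 CPM) and 5 largest after DEX among called genes of the other transporters, the 4 largest of the response list, and the 3 genes most correlated with each member. Atf4, Cebpg, Ddit3, Trib3, Sesn2, Nupr1 and the marker genes were named after their values were seen. Alternatives were DESeq2 1.42.0, its size factors, library size alone, no filter, a minimum of 10 counts in all libraries, a replicate block, only the compared libraries, a minimum LFC of 1, and each library left out. Protein sequences were not used here. Some of the most correlated genes are not reported here.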

Additional observations from a re-analysis of the deposited data

Results flagged for a closer look

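For 5 named genes the DEX response differed between NaCl and FeSO4 mice by the test of the difference itself. The difference, as the LFC of DEX after FeSO4 minus that after NaCl, was -1.50 for Slc38a2, -1.58 for Slc25a15, -3.55 for Ddit4, -1.10 for Cebpb and 0.84 for Slc36a1. That of Slc36a1 (FDR = 0.038) passed the threshold in 8 of 18 alternatives and lost it in 10, namely without any 1 of the NaCl/PBS or NaCl/DEX mice, without FeSO4/PBS mouse 2 or without any 1 of the FeSO4/DEX mice, with FDRs up to 0.11. The other 4 kept their calls under all 18 alternatives run for them.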

How the results depend on the processing

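Of 940 values of the 10 transporters under alternatives other than the minimum LFC of 1, 885 kept direction and side of the threshold, 5 lost a call, 15 gained one and 35 changed sign, none of which was a called value. After FeSO4, the higher count was 4, 5 with DESeq2 or without a filter, 3 with library size alone or a minimum LFC of 1, and 3 to 5 with a library left out, while the lower count was 2, 3 without a filter or with library size alone, 0 with a minimum LFC of 1, and 1 to 3 with a library left out. After DEX in NaCl mice, the higher count was 1, 2 without a filter or with only the compared libraries, and 1 to 2 with a library left out, while the lower count was 0, and 1 when scaled by library size alone. In FeSO4/DEX against NaCl/DEX the higher count was 3, 5 without a filter, 4 with only the compared libraries, and 3 to 4 with a library left out, and the lower count was 1, and 0 with a minimum LFC of 1. For the difference of the DEX responses the higher count was 0, and 0 to 1 with a library left out. The cause of these shifts was not tested. Scaling by library size alone moved the median LFC of all genes after FeSO4 from -0.02 to -0.34. With it Slc7a2 lost its call (0.61, FDR = 0.097) and Slc38a3 was called lower (-0.68, FDR = 0.0016).

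The sign changes were as follows. With library size alone, the LFC was -0.01 for Slc7a5 after FeSO4, -0.02 for Slc38a4 after DEX, -0.14 for Slc38a3 in FeSO4/DEX against NaCl/DEX and 0.04 for the difference of Slc7a5. The difference of Slc38a4 was -0.03 by DESeq2 or its size factors and -0.01 without a filter. With a library left out, the range was -0.31 to 0.11 for Slc43a1 after FeSO4, and -0.12 to 0.04 for Slc1a2 and -0.13 to 0.38 for Slc43a1 after DEX in NaCl mice. For DEX in FeSO4 mice it was -0.45 to 0.19 for Slc7a1, -0.08 to 0.66 for Slc7a2, -0.05 to 0.19 for Slc38a3, -0.07 to 0.33 for Slc38a4 and -0.10 to 0.25 for Slc25a22. In FeSO4/DEX against NaCl/DEX it was -0.08 to 0.18 for Slc38a3 and -0.27 to 0.24 for Slc43a1. For the differences it was -0.04 to 0.63 for Slc7a1, -0.24 to 0.08 for Slc7a5, -0.22 to 0.20 for Slc38a4 and -0.32 to 0.05 for Slc25a22.

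Same-numbered mice did not deviate together (r from -0.0919 to 0.129 over 18 pairs), so the numbers do not pair them. With the replicate block, 4 transporters were higher and 2 lower after FeSO4, and the LFC of Slc38a2 was 2.61. Levels per kilobase moved with the length of the longest transcript in place of all exons, for example from 207 to 338 for Slc38a3 in NaCl/PBS mice. The lengths were 9239 and 5671 bases for Slc38a3, and 6178 and 4231 bases for Slc38a4. Since they shrink by different shares, the order of neighbouring transporters and the overlap of their mice also depend on the length used.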
